A study of Homo sapiens with 2 samples.

Results

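The miR-99 and miR-100 family was examined in small RNA libraries from MDA-MB-231-IV2-1 cells with and without knockdown of the long non-coding RNA LOC550643. Its members were taken by name: every mature miRNA whose name starts with hsa-miR-99a, hsa-miR-99b or hsa-miR-100, from either arm of the hairpin. Of the 425 mature miRNAs listed in at least 1 library, 5 belonged to the family: hsa-miR-100-5p, hsa-miR-99b-5p, hsa-miR-99b-3p, hsa-miR-99a-5p and hsa-miR-100-3p (hsa, the prefix for human, is left out from here on). The control library listed 4 of them and the knockdown library 5, and miR-99a-3p was listed in neither.

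MDA-MB-231-IV2-1 cells derive from MDA-MB-231, a human breast cancer line without hormone receptors or HER2 amplification, and were selected in mice for high metastatic ability. The labels give MDA-MB-231 as the cell line, and the sample titles name the IV2 derivative. One library was made from cells transiently transfected with a scrambled siRNA (N.C) and the other from cells transfected with pooled siRNAs against LOC550643, each collected 48 h after transfection. The experiment asked which miRNAs differ when LOC550643 is depleted. With 1 library per condition, an effect of the siRNA cannot be told apart from differences between single cultures or single libraries, and no test was made. LOC550643 is not a miRNA and has no value in these tables, so the depth of the knockdown was not analysed here. Of the mesenchymal or basal breast line markers (miR-221-3p, miR-222-3p, miR-21-5p, miR-155-5p and miR-146a-5p), 5 of 5 were listed in each library, summing to 189795 RPM (reads per 1000000 miRNA reads) in the control and 186920 RPM in the knockdown library, whereas 2 of 6 epithelial markers of the miR-200 family and miR-205-5p were listed in each, summing to 10.6 and 8.14 RPM. Most of the first sum was miR-21-5p, at 176112 and 175898 RPM, whereas miR-155-5p was at 15.9 and 10.2 RPM.

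A miRNA is cut from a hairpin precursor, and the product of the 5′ side is called 5p and that of the 3′ side 3p. Usually one of these arms is loaded into an Argonaute protein and kept, while the other is degraded. Bases 2 to 8 of the loaded strand, the seed, make most of the contact with target mRNAs, so miRNAs that share a seed are grouped as a family. The miR-99/100 family is an old one in animals, its genes lie beside let-7 and miR-125 genes in conserved clusters, and MTOR and IGF1R, which act in growth signalling, are among its best-known targets.

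The mature sequences are shown because the members differ by only a few bases, which decides how well short reads can be told apart. They are RefSeq entries on GRCh38.p14, written 5′ to 3′ with the seed in capitals.
miR-100-5p: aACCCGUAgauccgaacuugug
miR-99a-5p: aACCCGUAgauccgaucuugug
miR-99b-5p: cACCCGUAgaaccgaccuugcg
miR-99b-3p: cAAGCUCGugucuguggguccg
miR-99a-3p: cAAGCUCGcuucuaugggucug
miR-100-3p: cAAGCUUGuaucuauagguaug
The 3 5p products carry 1 seed, ACCCGUA. The 3p products have another, AAGCUCG for miR-99a-3p and miR-99b-3p and AAGCUUG for miR-100-3p. Counted from 1 at the 5′ end, with the base of the first-named miRNA written first, miR-100-5p and miR-99a-5p differ by the single substitution A16U. miR-100-5p and miR-99b-5p differ by A1C, U11A, A16C and U21C. How the authors' counting treated a mismatch is not given in the sources used here, so a read of miR-100-5p with an error at base 16 could have been counted as miR-99a-5p, and the values of this pair are uncertain to that extent.

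The hairpins show where the arms lie in each precursor. They are RefSeq entries of the same build, given 5′ to 3′ along the transcribed strand with both mature arms in capitals.
MIR100: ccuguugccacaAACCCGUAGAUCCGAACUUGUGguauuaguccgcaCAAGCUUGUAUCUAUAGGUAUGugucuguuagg
MIR99A: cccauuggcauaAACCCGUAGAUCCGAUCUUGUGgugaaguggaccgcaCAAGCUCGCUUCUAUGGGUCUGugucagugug
MIR99B: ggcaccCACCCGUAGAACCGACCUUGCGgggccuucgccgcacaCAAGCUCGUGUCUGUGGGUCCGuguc
In the GENCODE 29 annotation of GRCh38, MIR100 lies on the minus strand of chromosome 11 from 122152229 to 122152308, within an intron of the non-coding transcript gene MIR100HG in 8 of the 8 transcripts that span it. MIR99A lies on the plus strand of chromosome 21 from 16539089 to 16539169, within an intron of the long intergenic non-coding RNA MIR99AHG in 13 of 13 spanning transcripts. MIR99B lies on the plus strand of chromosome 19 from 51692612 to 51692681, within an intron of the protein-coding gene SPACA6 in the 1 transcript that spans it, and it also overlaps an exon of SPACA6P-AS on the opposite strand. Each hairpin is followed by a let-7 and then a miR-125 hairpin. On chromosome 11, let-7a-2 is 5635 bases and MIR125B1 52384 bases downstream of MIR100. On chromosome 21, let-7c is 658 bases and MIR125B2 51067 bases downstream of MIR99A. The chromosome 19 cluster is compact, with let-7e 104 bases and MIR125A 572 bases downstream of MIR99B.

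**Figure D1:**
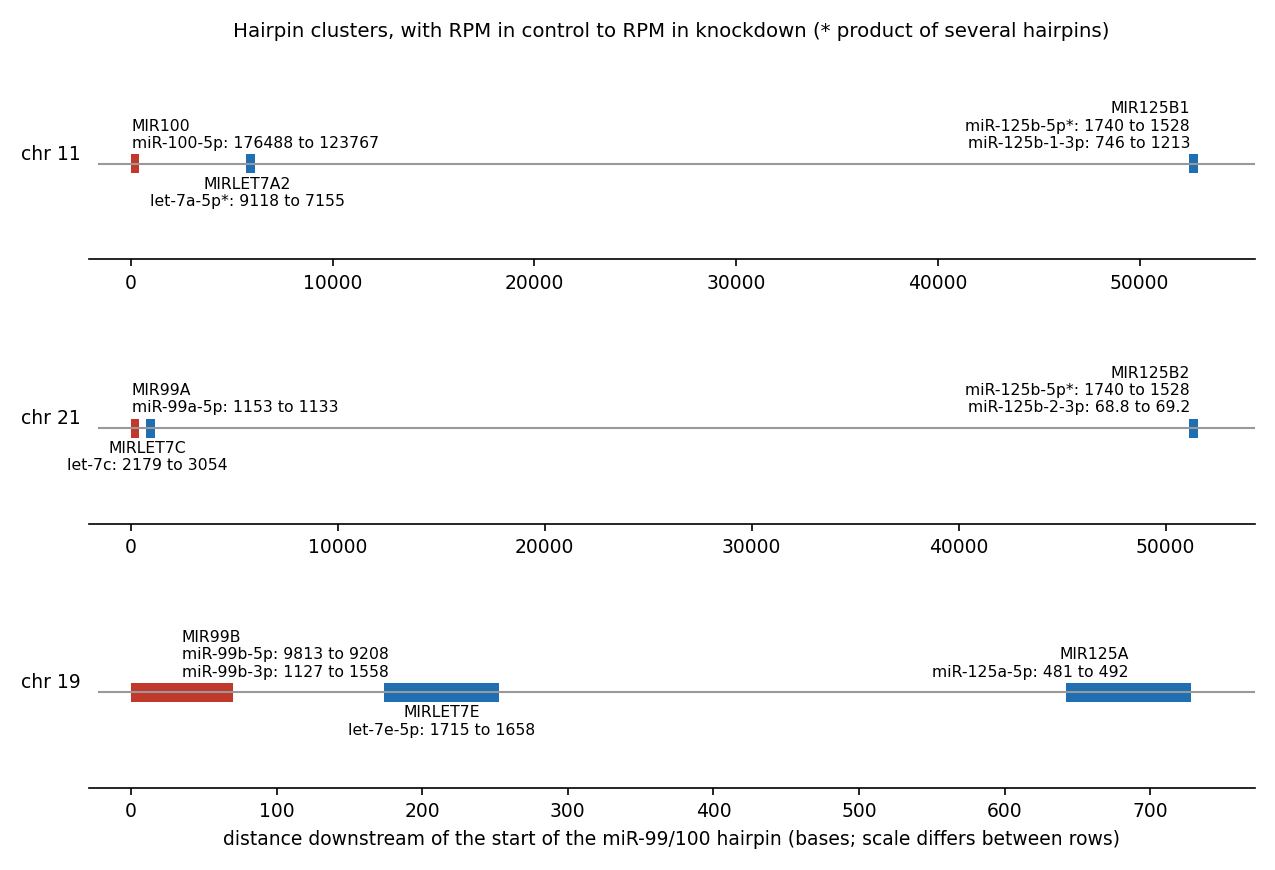
Position of the family hairpins (red) and of their let-7 and miR-125 partners (blue) in the 3 clusters, as distance in bases downstream of the start of each family hairpin, with the RPM of their mature products in the control and then the knockdown library. Short hairpins on the upper rows are drawn wider than to scale so that they can be seen. The miR-100 product is the most abundant in its cluster in both libraries, whereas let-7c exceeds miR-99a-5p in both.

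The family held a large share of the miRNA pool, and that share was smaller in the knockdown library. The summed level was 188581 RPM in the control library (95% interval 186819 to 190351; 35648 estimated reads) and 135673 RPM in the knockdown library (134717 to 136634; 66689 estimated reads). This corresponds to 18.9% of the miRNA reads in the control and 13.6% in the knockdown library, a difference of -5.29 percentage points. Under the same library total, the log2 fold change of the summed level, knockdown over control, was -0.48 (interval -0.49 to -0.46), or 1.39-fold lower. It was -0.28 by the median of ratios, -0.19 by the 75th percentile and -0.57 by the total outside the family. The size of the difference thus depended on the scaling. Intervals are exact 95% intervals that treat each estimated read as independent, and they address counting error only. Reads amplified without molecular identifiers are not independent molecules, so the intervals can be too narrow even for counting error. Without miR-100-5p, the other members summed to 12093 RPM in the control and 11906 RPM in the knockdown library, a log2 fold change of -0.02 (-0.09 to 0.05). The lower total was therefore made up almost wholly of miR-100-5p reads.

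miR-100-5p, the main product of the chromosome 11 cluster, measured 176488 RPM in the control library (174771 to 178213) and 123767 RPM in the knockdown library (122848 to 124692). The log2 fold change was -0.51 (-0.53 to -0.49), or 1.43-fold lower. It was the second most abundant of all miRNAs in the control library and the third in the knockdown library, with 17.6% and 12.4% of the miRNA reads. In RPM both its level and its difference between the libraries exceeded those of the other members. On the log2 scale and under the same total, miR-99b-3p differed by nearly as much in the opposite direction (0.47). For miR-100-5p and miR-99b-3p, the median of ratios gave -0.31 and 0.67, and the 75th percentile -0.23 and 0.75. The total outside the family gave -0.60 and 0.38, so which of them differed more depended on the scaling.

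miR-99b-5p, the 5p product of the chromosome 19 cluster, measured 9813 RPM in the control library (9374 to 10268) and 9208 RPM in the knockdown library (8943 to 9479). Its log2 fold change was -0.09 (-0.17 to -0.01) with both libraries scaled to the same total, but 0.11 when scaled by the median of ratios and 0.19 when scaled by the 75th percentile, so the direction depended on the scaling. The level ranked 13 in the control and 11 in the knockdown library.

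miR-99a-5p, the chromosome 21 member that differs from miR-100-5p by a single base, measured 1153 RPM in the control library (1005 to 1317) and 1133 RPM in the knockdown library (1041 to 1231). The log2 fold change was -0.03 (-0.25 to 0.21), and it was 0.17 by the median of ratios and 0.26 by the 75th percentile, so no direction can be given. Its reads equalled 0.653% of those of miR-100-5p in the control library (0.569 to 0.747) and 0.916% in the knockdown library (0.841 to 0.995). What part misassigned miR-100-5p reads have in these values was not tested.

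miR-99b-3p, the opposite arm of the miR-99b hairpin, was the only member above 3 reads in both libraries that was higher in the knockdown library under every scaling tried. It measured 1127 RPM in the control library (981 to 1289) and 1558 RPM in the knockdown library (1450 to 1673). The log2 fold change was 0.47 (0.25 to 0.69), or 1.38-fold higher, and it lay between 0.38 and 0.75 across the scalings.

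miR-100-3p was listed only in the knockdown library, at 6.10 RPM, which is 3 reads. In the control library 3 reads equal 15.9 RPM, and the exact interval for its count of 0 reaches 19.5 RPM. A difference was thus not detectable at this depth and no fold is given. miR-99a-3p had no read in either library, which allows up to 15.9 RPM in the control and 6.10 RPM in the knockdown library.

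**Figure D2:**
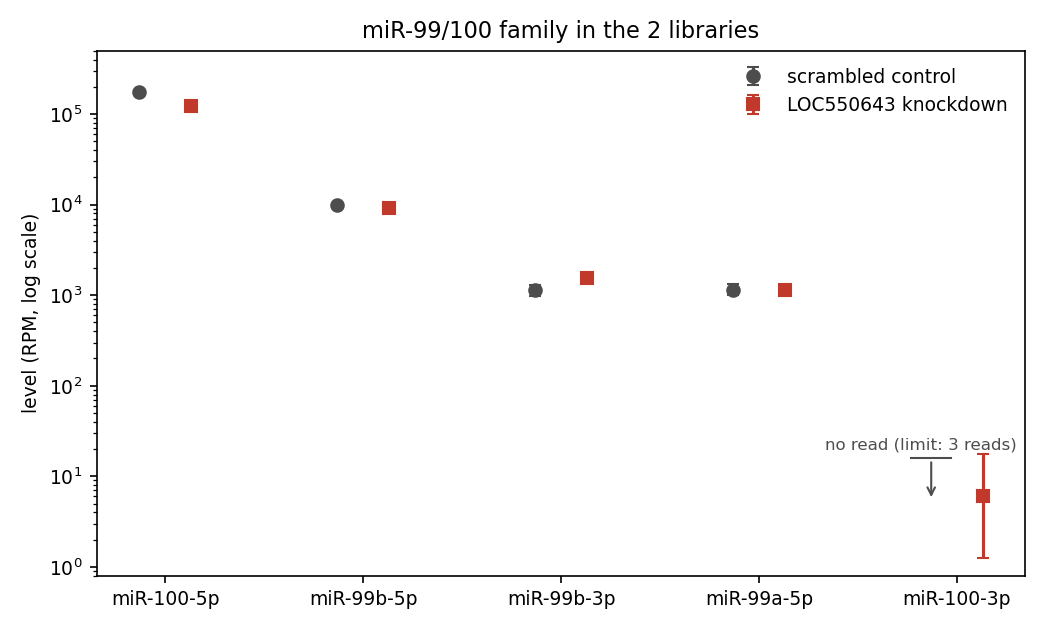
Level of each family member in RPM (log scale) in the control (grey circles) and knockdown (red squares) libraries, with exact 95% counting intervals, which are smaller than the symbols for the abundant members; 1 library per condition. The arrow marks miR-100-3p in the control, which had no read and a limit of 15.9 RPM at 3 reads. miR-100-5p stands more than 10-fold above every other member in both libraries.

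The composition of the family shifted away from miR-100-5p, although that member remained dominant. Its share of the family total was 93.6% in the control library (93.3 to 93.8) and 91.2% in the knockdown library (91.0 to 91.4), a difference of -2.36 percentage points. The share of miR-99b-5p went from 5.20% (4.98 to 5.44) to 6.79% (6.60 to 6.98). That of miR-99b-3p went from 0.598% (0.520 to 0.683) to 1.15% (1.07 to 1.23), and that of miR-99a-5p from 0.612% (0.533 to 0.698) to 0.835% (0.768 to 0.907). These shares are linked, since a lower value of miR-100-5p raises the share of every other member.

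Ratios between members do not depend on how the libraries are scaled to each other. miR-100-5p was 18.0 times as abundant as miR-99b-5p in the control library and 13.4 times in the knockdown library, a log2 change of the ratio of -0.42 (-0.50 to -0.34). Against miR-99a-5p the ratio was 153 in the control and 109 in the knockdown library, a log2 change of -0.49 (-0.72 to -0.26). The ratio of miR-99b-5p to miR-99a-5p was 8.51 and 8.13, and its log2 change of -0.07 had an interval that spans 0 (-0.31 to 0.18). Among the 5p products with the shared seed, miR-100-5p was thus lower relative to both miR-99b-5p and miR-99a-5p, whatever the scaling. Both of these counting intervals exclude 0, but the ratios share miR-100-5p and are not separate results.

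The arms of the miR-99b hairpin also shifted against each other. In the control library 213 of 2068 miR-99b reads came from the 3p arm, or 10.3% (9.02 to 11.7), and in the knockdown library 766 of 5292, or 14.5% (13.5 to 15.5). The 5p over 3p ratio was 8.71 in the control library (7.55 to 10.1) and 5.91 in the knockdown library (5.47 to 6.39), a log2 change of -0.56 (-0.80 to -0.32). As a background, arm ratios were computed for the 13 hairpins with arms named alike apart from 5p and 3p, both averaging 100 RPM or more. Pairs with a numbered arm were left out, such as miR-30c-5p (log2 fold change -0.70) with miR-30c-2-3p (0.70). The counts and the range given here cover the 13 only. Of the 13, 6 (46.2%) had a counting interval of the change that excludes 0, so a shift of this kind was common among the hairpins compared. The ratio was lower in the knockdown library for 6 hairpins and higher for 7, the median size of the log2 change was 0.46, and the changes ran from -0.92 for miR-30e to 1.72 for miR-27a. The miR-99b change was exceeded in size by 4 of the other hairpins compared.

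The miR-100 and miR-99a hairpins were almost purely 5p. miR-100-3p made up 0 of 33362 miR-100 reads in the control library, with an interval up to 0.0111%. It made up 3 of 60840 in the knockdown library, or 0.00493% (0.00102 to 0.0144). miR-99a-3p made up 0 of 218 reads in the control library, with an interval up to 1.68%, and 0 of 557 in the knockdown library, with an interval up to 0.660%. The depth of miR-99a is thus too low to show a 3p arm as rare as that of miR-100, but a 3p share like that of miR-99b would have been seen.

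**Figure D3:**
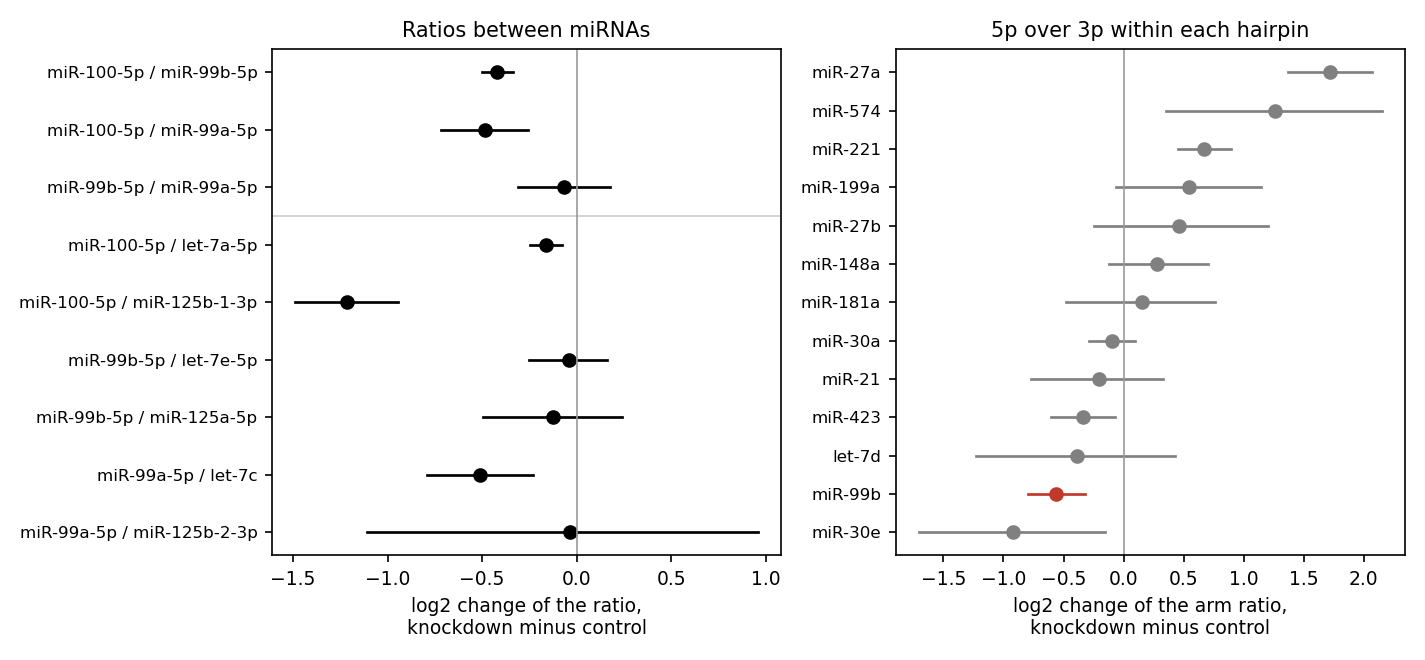
Left, log2 change (knockdown minus control) of the ratio between pairs of family members (above the line) and between members and the let-7 or miR-125 products of the same clusters (below the line). Right, log2 change of the 5p over 3p ratio for 13 hairpins, with miR-99b in red at -0.56. Points are ratios of RPM and lines are 95% counting intervals; the ratio of miR-100-5p to miR-125b-1-3p has the largest change on the left, -1.21.

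The partners in the clusters are let-7 miRNAs, which repress growth-promoting mRNAs and mark differentiated cells, and miR-125 miRNAs, the relatives of the lin-4 miRNA of worms. Of the 11 partner products on the list, 10 were listed and 7 had more than 3 reads in both libraries, 3 of them lower and 4 higher in the knockdown library under the same total. By the median of ratios and by the 75th percentile 1 was lower and 6 were higher, and by the total outside the family 5 were lower and 2 higher. Over all 425 miRNAs, 57.6% were lower and 42.4% higher under the same total. By the median of ratios 213 were lower and 212 higher, by the 75th percentile 208 and 217, and by the total outside the family 258 and 167. Of the 51 miRNAs averaging 1000 RPM or more, 35 were lower under the same total. In the order median of ratios, 75th percentile and total outside the family, 19, 16 and 38 of them were lower, so the partner counts moved with the scaling as these did.

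In the chromosome 11 cluster, the ratio of miR-100-5p to each partner product above 3 reads in both libraries was lower in the knockdown library. Of these products only miR-125b-1-3p, a minor arm, is specific to the cluster. let-7a-5p measured 9118 RPM in the control and 7155 RPM in the knockdown library, a log2 fold change of -0.35 (-0.43 to -0.27). This sequence is made from 3 hairpin genes, so its value belongs to no single cluster. miR-125b-1-3p, which is specific to MIR125B1, measured 746 RPM and 1213 RPM, a log2 fold change of 0.70 (0.43 to 0.98). The ratio of miR-100-5p to miR-125b-1-3p was accordingly 237 in the control and 102 in the knockdown library, 2.32-fold lower, with a log2 change of -1.21 (-1.49 to -0.94). The shift was smaller against the main arm, miR-125b-5p, which MIR125B1 shares with MIR125B2: that ratio was 101 in the control and 81.0 in the knockdown library, a log2 change of -0.32 (-0.52 to -0.13). The ratio of miR-100-5p to let-7a-5p was 19.4 and 17.3, a log2 change of -0.16 (-0.25 to -0.08). Changes of the balance between arms were common among the hairpins compared (6 of 13, which do not include miR-125b), and their part in the miR-125b-1-3p value was not tested. let-7a-2-3p, the product that would mark the neighbouring hairpin, had 3 reads (15.9 RPM) in the control and 7 (14.2 RPM) in the deeper knockdown library. Counts this low do not allow a comparison.

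In the chromosome 21 cluster, let-7c, the partner 658 bases from MIR99A, was higher in the knockdown library, at 3054 RPM against 2179 RPM in the control, a log2 fold change of 0.49 (0.33 to 0.65). The ratio of miR-99a-5p to let-7c was 0.529 in the control and 0.371 in the knockdown library, a log2 change of -0.51 (-0.79 to -0.23). let-7c differs from let-7a-5p by the single substitution A19G, so reads of these miRNAs could also have been exchanged. miR-125b-2-3p, the 3p product of MIR125B2, measured 68.8 and 69.2 RPM (13 and 34 reads), a log2 fold change of 0.01 (-0.95 to 1.05). The study concludes that LOC550643 sponges this miRNA, and by real-time PCR it was higher after knockdown. The counts here are too low to set against that result. Its ratio to miR-99a-5p could not be resolved either. miR-99a-5p was 16.8 times as abundant in the control and 16.4 times in the knockdown library, a log2 change of -0.03 (-1.11 to 0.96). miR-125b-5p, made from MIR125B1 and MIR125B2, measured 1740 RPM and 1528 RPM, with a log2 fold change of -0.19 (-0.38 to 0.00) under the same total but 0.01 by the median of ratios and 0.09 by the 75th percentile.

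In the chromosome 19 cluster, the 5p products kept their proportions within counting error. let-7e-5p measured 1715 RPM in the control and 1658 RPM in the knockdown library, and miR-125a-5p 481 and 492 RPM. The ratio of miR-99b-5p to let-7e-5p was 5.72 and 5.55, a log2 change of -0.04 (-0.25 to 0.16), and its ratio to miR-125a-5p was 20.4 and 18.7, a log2 change of -0.12 (-0.50 to 0.24). These intervals allow changes of the ratio in either direction. miR-99b-3p was higher relative to both partners, with a log2 change of 0.52 (0.22 to 0.81) against let-7e-5p and 0.44 (0.01 to 0.86) against miR-125a-5p. Of the minor arms, let-7e-3p had 2 reads in each library, which is 10.6 RPM in the control and 4.07 RPM in the deeper knockdown library. miR-125a-3p had 1 read (5.29 RPM) in the control and 17 (34.6 RPM) in the knockdown library.

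**Figure D4:**
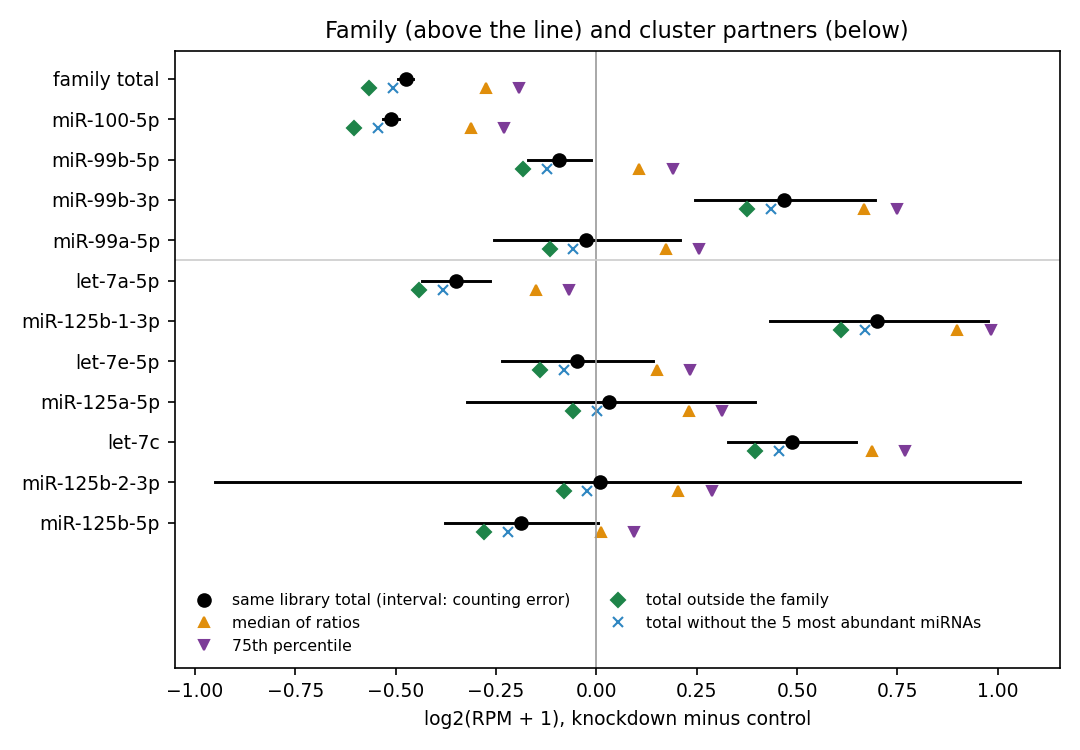
Change in log2(RPM + 1), knockdown minus control, of the family total, the 4 members above 3 reads in both libraries and the 7 cluster partners above 3 reads in both. Black points use the same library total, with lines for the 95% counting interval, and coloured symbols use the other scalings; miR-100-5p lies below 0 and miR-99b-3p above 0 under every scaling shown, whereas miR-99b-5p and miR-99a-5p change side.

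The differences of the members were then read against those of all miRNAs. Of the 425 miRNAs, 116 (27.3%) were below the control by more than 2-fold and 76 (17.9%) above it under the same library total, and no member with over 3 reads in both libraries passed 2-fold under any scaling. The excess of lower miRNAs depended on the scaling, with 90 lower and 83 higher by the median of ratios and 79 lower and 85 higher by the 75th percentile. At 1.3-fold under the same total, 179 (42.1%) were below the control and 125 (29.4%) above it. Among the members with over 3 reads in both libraries, miR-100-5p was below and miR-99b-3p above it. The counts over all 425 have no such read limit. Under the same total, their 76 and 125 higher miRNAs include miR-100-3p, which had 3 reads in the knockdown library only. Many of the 425 miRNAs rest on few reads. The 51 miRNAs averaging 1000 RPM or more, which hold the 4 abundant members, are therefore the closer comparison. Under the same library total, 35 of the 51 (68.6%) were lower in the knockdown library, as were 3 of the 4 members, and 16 (31.4%) were higher, as was 1 member. By the median of ratios 19 of the 51 were lower and 32 higher, and by the 75th percentile 16 were lower and 35 higher, with 1 of the 4 members lower and 3 higher by both. Under the same total, 10 of the 51 (19.6%) were more than 1.3-fold lower, miR-100-5p included, and 8 (15.7%) more than 1.3-fold higher, miR-99b-3p included. By the median of ratios these numbers were 4 and 11, and by the 75th percentile 3 and 12, and miR-100-5p did not pass 1.3-fold by either. miR-99b-3p was just short of 1.3-fold by the total outside the family (0.38). None was more than 2-fold lower (0%), and 2 (3.92%) were more than 2-fold higher. The counting interval excluded 0 for 32 of the 51 (62.7%), which counts 3 of the 4 members, so counting error alone does not set a member apart in these libraries. In order of log2 fold change from the lowest of the 51, miR-100-5p ranked 6, miR-99b-5p 26, miR-99a-5p 32 and miR-99b-3p 45. The median log2 fold change of the 51 was -0.09, with quartiles of -0.30 and 0.09, so miR-99b-5p and miR-99a-5p lay between the quartiles and the other two outside them.

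**Figure D5:**
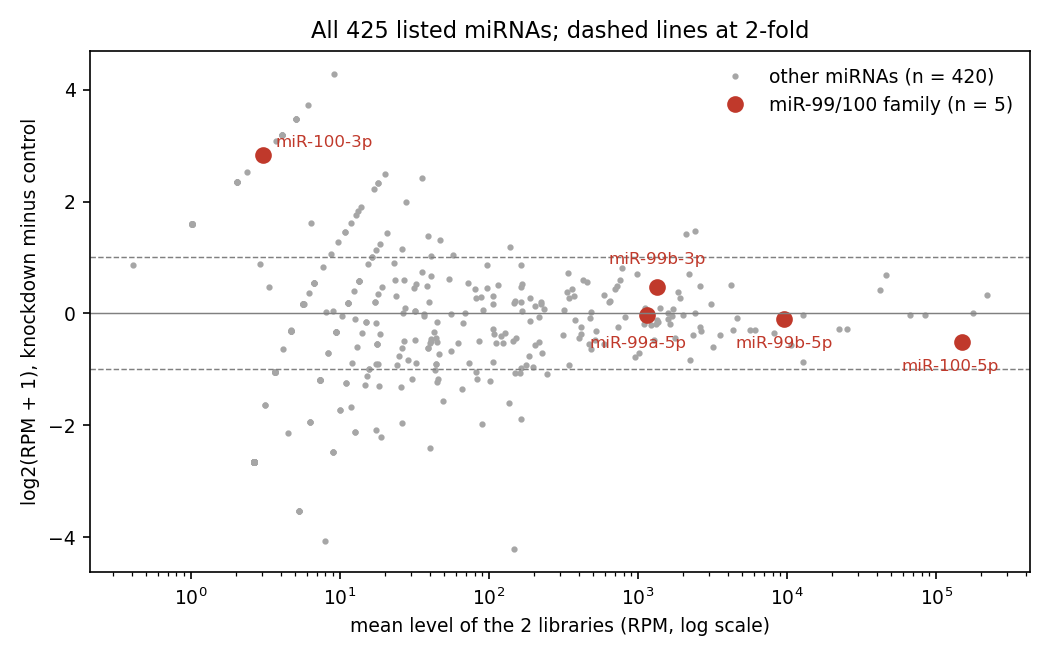
Change in log2(RPM + 1), knockdown minus control, against the mean level of the 2 libraries (RPM, log scale) for the 425 listed miRNAs, with the 5 family members in red and dashed lines at 2-fold. miR-100-5p lies far to the right at -0.51; the height of miR-100-3p is set by the added 1 RPM, since it rests on 3 reads in 1 library.

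Because of its abundance, miR-100-5p weighed heavily on the balance of reads. All decreases between the libraries summed to 96637 RPM, and miR-100-5p made up 52720 RPM of them, or 54.6%. The next contribution, that of miR-27b-3p, was 7465 RPM, or 7.73%. On the other side, miR-148a-3p, the most abundant miRNA of the control library, made up 50.6% of all increases and miR-143-3p 22.1%. In RPM the values of one library must sum to a fixed total, so a lower value of one abundant miRNA is matched by higher values elsewhere. Under the same total, the other 3 of the 5 most abundant control miRNAs had log2 fold changes near 0. miR-21-5p was at -0.0018, let-7i-5p at -0.03 and miR-30a-5p at -0.02, and miR-148a-3p was at 0.32. The shares of decreases and increases were also taken under the same total only, and other scalings shift all of these values.

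Scaling by the median of ratios moved every log2 fold change up by up to 0.20 and scaling by the 75th percentile by up to 0.28, relative to the same total. miR-100-5p remained lower in the knockdown library under each scaling, with values from -0.60 to -0.23. Outside the family and its partners, the abundant miRNAs with the log2 fold change nearest to that of miR-100-5p over these 2 libraries were miR-23b-3p, from 1492 to 1070 RPM (-0.48), miR-30d-5p, from 12627 to 8556 RPM (-0.56), and miR-423-5p, from 2047 to 1516 RPM (-0.43).

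The study asked whether LOC550643 binds miRNAs through complementary letters, so its isoforms V1 (718 bases), V2 (581 bases) and V3 (476 bases) were searched on the transcript strand for matches to the family seeds. The letters TACGGGT, the reverse complement of bases 2 to 8 of the 5p products, were found 0 times in the 3 isoforms, and ACGGGT, that of bases 2 to 7, also 0 times. For scale, TACGGGT occurs in the first 718 bases of 0.607% of the 116724 GENCODE 29 transcripts at least that long, and ACGGGT in 4.25%, so most transcripts lack both. For the 3p products, CGAGCTT and GAGCTT (miR-99a-3p and miR-99b-3p) and CAAGCTT and AAGCTT (miR-100-3p) were likewise found 0 times, against 1.70%, 18.2%, 4.34% and 16.7% of those transcripts. This says only that these letters are not in these sequences, and other kinds of pairing were not searched.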

How the data were processed

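Small RNA of 1 control and 1 knockdown library was sequenced by the authors, who used an in-house program to count mature miRNAs and deposited normalised RPM values (reads per 1000000 miRNA reads). The submitters' processing notes name FastQC, cutadapt and hg38. The aligner, the miRNA release and the treatment of mismatches and of reads that match several miRNAs are not given in the sources used here. The labels and the study differ on the sequencer and the library kit.

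Members and lists were chosen with earlier results of these data known. A missing miRNA was set to 0, and each library was rescaled to 1000000 (deposited sums 999996 and 999845). Low values lie on a ladder whose step was read as 1 read, 5.29 RPM in the control and 2.03 RPM in the knockdown library, which gives about 189034 and 491541 reads. Of the values up to 20 reads, 92.9% of 253 and 91.5% of 224 were whole within 0.1 read. The deeper knockdown library has the narrower intervals. Whole reads were not recovered throughout, so no count test was run. Fold changes are on the log2(RPM + 1) scale, which understates low miRNAs, and none is given where a library had at most 3 reads. Intervals of levels and shares are Clopper-Pearson, and those of ratios and fold changes are exact conditional ones.

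Named miRNAs were all members, their cluster partners (let-7c-5p is listed as let-7c, and let-7c-3p in neither library), the 5 most abundant control miRNAs, and the 3 with a mean of at least 1000 RPM nearest to miR-100-5p in log2 fold change. miRNAs named for their share of all increases or decreases or for an extreme arm ratio were chosen after their values were seen. RefSeq held a sequence for 5 of 5 members and for 351 of the 425 miRNAs. Hairpin positions were equal in GENCODE 29 and RefSeq. Isoform sequences of LOC550643 came from the study's supplement. Scripts were tested on simulated data. Python 3.11.15, numpy 2.4.6, scipy 1.17.1 and matplotlib 3.10.9 were used.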

Additional observations from a re-analysis of the deposited data

How the results depend on the processing

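No paired analysis was possible because neither condition has a second library, and for the same reason no library was left out. An alternative value is called moved where it left the counting interval.

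In the order median of ratios, 75th percentile, total outside the family and total without the 5 most abundant miRNAs, the log2 fold change of the family total was -0.28, -0.19, -0.57 and -0.51, and that of miR-100-5p was -0.31, -0.23, -0.60 and -0.54. For miR-99b-5p the first 3 gave 0.11, 0.19 and -0.18. The 75th percentile gave 0.75 for miR-99b-3p and 0.26 for miR-99a-5p. Counting miR-99a-5p and miR-100-5p as 1 miRNA, an alternative chosen after seeing the data, gave -0.51. Of the 49 partner values under alternatives, 10 moved and 7 changed sign.

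The miR-100-5p share of the family was 94.1% in the control and 92.3% in the knockdown library over 5p arms only, and 94.2% and 92.1% with miR-99a-5p counted in. Over the family without miR-100-5p, the shares in control and knockdown were 81.1% and 77.3% for miR-99b-5p, 9.32% and 13.1% for miR-99b-3p, and 9.54% and 9.52% for miR-99a-5p.

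The counts past 2-fold, 76 above and 116 below the control, became 19 and 25 with a pseudocount of 10 RPM, 28 and 66 for those with a value in both libraries, 34 and 51 at 10 RPM or more in a library, 3 and 7 at a mean of 100 RPM or more, and 2 and 0 at 1000 RPM or more. A threshold of 1.3-fold gave 125 and 179. By scaling, the counts past 2-fold were 83 and 90 with the median of ratios, 85 and 79 with the 75th percentile, 71 and 123 with the total outside the family, and 73 and 119 with the total without the 5 most abundant miRNAs, so the balance of the directions was not stable.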
